A study of Mus musculus with 21 samples.

Results

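The mitosis genes are 41 genes whose products drive a cell through division: the CDK1 kinase with its cyclins and cofactors, the mitotic and checkpoint kinases, the chromosomal passenger complex, centromere and kinetochore proteins, the regulators of anaphase, kinesins, spindle and cytokinesis proteins, and proteins of the mitotic chromosome. They were taken as a named list and matched by symbol to the probe annotation of an Illumina mouse beadchip. The list was drawn up with earlier results of these data known. Of the 41 genes, 39 had at least 1 probe of that symbol, 72 probes in all among the 45281 of the array, and 25 were detected often enough to be tested among 11442 genes. Ccnb1, the main mitotic cyclin B, and Mki67, which encodes the Ki-67 proliferation marker, had no probe paired with their symbol and were not analysed here.

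RNA came from whole livers of female CD-1 mice, an outbred strain, about 3 months old, at 1, 3 and 6 h after partial hepatectomy (PH), the surgical removal of most of the liver mass, and at the same times after 1 dose of TCPOBOP (TCP), given by gavage at 3 mg/kg in dimethyl sulfoxide and corn oil. TCP is a ligand of the nuclear receptor CAR and a direct mitogen of mouse hepatocytes. Untreated control livers (CO) served both treatments, and each of the 7 groups held 3 mice, each on an array of its own. No group had sham surgery or the vehicle alone, and CO livers were not collected at 1, 3 and 6 h, so surgery, anaesthesia, gavage and time of day cannot be told apart from PH or TCP. The RNA pooled all cell types of the liver, so fewer dividing cells and less RNA per cell cannot be told apart. The hepatocyte markers, 8 of 8, were detected on every array.

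Entry into mitosis depends on CDK1 bound to its cyclins, and exit from it on the anaphase-promoting complex, which marks cyclins and securin for destruction. Most genes of the machinery are silent in quiescent cells and are transcribed late in the cycle, when MYB and FOXM1 bind with the MuvB core at promoters that the DREAM complex represses in resting cells. The adult liver is largely quiescent, and both PH and TCP send hepatocytes into S phase only well after the hours sampled here, so the comparisons cover the time before replication and mitosis.

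The DREAM and MuvB complexes bind the cell cycle homology region (CHR), spelled TTTGAA or TTCGAA, often near a CCAAT box, which NF-Y binds. In the RefSeq promoter windows of the mouse assembly GRCm38.p6, 34 of the 41 genes had a window and 2 of them more than 1, giving 36 windows. A CHR on either strand lay between 100 bases before and 50 bases after the annotated start in 26 of the 36 windows (72.2%), against 2821 of the 32851 windows of all genes (8.59%). CCAAT, on either strand, lay there in 27 windows of mitosis genes (75.0%) and in 23.4% of all windows, and both motifs in 61.1% and 2.09%. The CHR and CCAAT spellings do not overlap each other. A match describes the letters only and is no evidence of binding in these livers. The 150 bases around the start are given for 7 genes on which the results below turn, 5′ to 3′ on the gene's strand, with the start after base 100, and with each CHR or CCAAT match in capitals (TTCAAA and ATTGG where the match is on the other strand). They are Cdc20 (chr4:118437294-118437443, minus strand), Plk1 (chr7:122159335-122159484, plus strand), Cenpa (chr5:30666786-30666935, plus strand), Cdca3 (chr6:124830076-124830225, plus strand), Kif22 (chr7:127042371-127042520, minus strand), Hjurp (chr1:88277530-88277679, minus strand) and Birc5 (chr11:117849137-117849286, plus strand).
Cdc20: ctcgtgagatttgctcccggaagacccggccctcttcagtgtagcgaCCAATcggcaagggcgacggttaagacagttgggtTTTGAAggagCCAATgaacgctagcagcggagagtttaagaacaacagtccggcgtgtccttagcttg
Plk1: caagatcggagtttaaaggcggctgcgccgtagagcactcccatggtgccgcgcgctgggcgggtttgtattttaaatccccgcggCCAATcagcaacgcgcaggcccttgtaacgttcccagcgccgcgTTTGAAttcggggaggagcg
Cenpa: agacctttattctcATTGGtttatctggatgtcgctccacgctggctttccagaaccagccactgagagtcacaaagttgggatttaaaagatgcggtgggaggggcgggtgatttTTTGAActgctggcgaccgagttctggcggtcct
Cdca3: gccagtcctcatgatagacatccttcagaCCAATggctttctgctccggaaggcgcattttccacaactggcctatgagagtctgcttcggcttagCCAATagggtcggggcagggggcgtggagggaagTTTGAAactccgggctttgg
Kif22: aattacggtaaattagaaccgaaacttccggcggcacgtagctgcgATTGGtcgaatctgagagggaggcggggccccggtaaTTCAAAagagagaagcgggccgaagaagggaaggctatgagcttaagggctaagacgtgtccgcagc
Hjurp: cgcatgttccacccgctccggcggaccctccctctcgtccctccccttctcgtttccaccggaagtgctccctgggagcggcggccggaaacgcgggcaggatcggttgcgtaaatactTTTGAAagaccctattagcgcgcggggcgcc
Birc5: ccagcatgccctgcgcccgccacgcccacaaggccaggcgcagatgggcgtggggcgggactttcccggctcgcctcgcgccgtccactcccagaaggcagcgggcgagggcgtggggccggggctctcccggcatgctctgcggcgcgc
The first 5 of these windows held both motifs, the Hjurp window a CHR alone, and the Birc5 window neither.

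Most mitosis genes lay close to the background of the array, so detection is given before levels. A probe counted as detected where its detection p, the deposited comparison with the negative control beads of the same array, was under 0.05. The arrays detected 13 to 25 of the 72 probes at PH 1 h, 14 to 20 at PH 3 h, 11 to 24 at PH 6 h, 10 to 27 at TCP 1 h, 11 to 14 at TCP 3 h and 7 to 28 at TCP 6 h, against 27, 36 and 42 in CO livers. Each CO array thus detected more of them than any array of PH or of TCP 3 h, while TCP 1 h replicate 1, with 27, and TCP 6 h replicate 1, with 28, reached the level of CO replicate 3. Over the whole array, between 35.3% and 39.7% of probes were detected on every one of the 21 arrays. At least 1 probe was detected for a median of 16, 13 and 15 of the 39 genes after PH at 1, 3 and 6 h, for 16, 12 and 15 after TCP, and for 25 in CO.

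**Figure D1:**
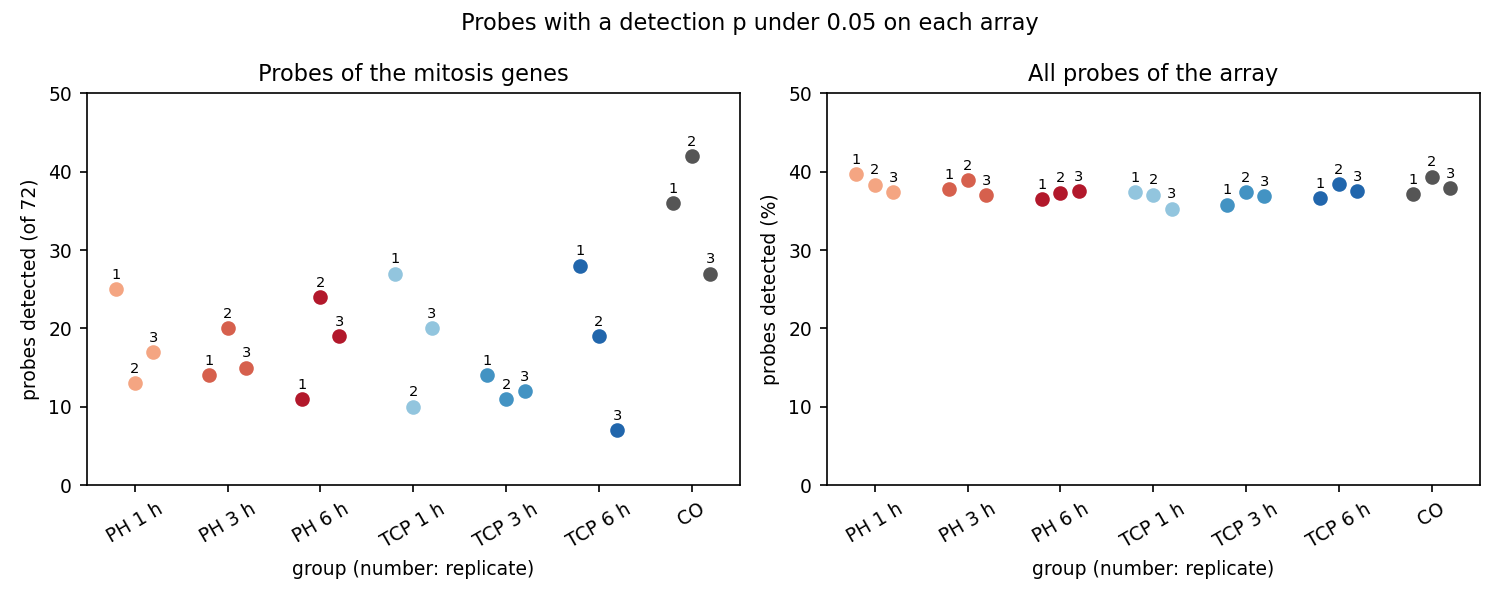
Number of the 72 mitosis gene probes detected on each array (left) and percent of all probes detected (right), with the replicate number above each point. The CO arrays detected 27, 36 and 42 of the mitosis gene probes, while the percent over all probes stayed between 35.3 and 39.7.

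The 5 genes Ccnb2, Nek2, Ttk, Bub1 and Racgap1 were detected by no probe on any array. Ccnb2 is a cyclin B, Nek2 a centrosome kinase, Ttk and Bub1 are kinases of the spindle checkpoint, and Racgap1 is a subunit of centralspindlin. A further 9, namely Ccna2, Cenpe, Ube2c, Pttg1, Kif11, Kif20a, Tpx2, Aspm and Ect2, were detected by their best probe on 1 or 2 arrays and were also left out of the test, which required detection on 3 arrays. With the detection requirement dropped, the changes of these 14 genes against CO ranged from -0.90 to 0.28 on the log2 scale over the 6 comparisons, and Kif11 and Tpx2 passed the call rule in some of them. Tpx2, which activates Aurora A on the spindle, was then lower at PH 3 h (-0.76), PH 6 h (-0.82) and TCP 3 h (-0.81), and the spindle motor Kif11 at PH 3 h (-0.85) and PH 6 h (-0.71). Of the 25 genes tested, 23 passed the filter on the treated arrays alone. Cenpf and Kif2c passed only because of the CO arrays, where they were higher, so their differences from CO are given as a description and support nothing.

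Levels are log2 signals after background correction with an added offset of 16 and quantile normalisation, so the change of a gene near background is understated. A gene was called where limma's adjusted p was under 0.05 over the 11442 genes and the change at least 1.5-fold. PH 1 h livers had 3 mitosis genes lower than CO, where 0.236% of all genes were called lower. At PH 3 h 9 were lower (3.52% of all genes), and at PH 6 h 10 were lower (11.9%). At TCP 1 h 1 was lower (0.0524% of all genes), at TCP 3 h 9 (0.586%) and at TCP 6 h 5 (2.94%). In shares of the 25 tested genes these counts were 12%, 36% and 40% after PH and 4%, 36% and 20% after TCP. No mitosis gene was called higher than CO in any comparison, where the share of all genes called higher was 0.297%, 3.92% and 8.79% after PH and 0.0874%, 0.446% and 2.72% after TCP. The 37 calls fell on 13 genes. Of them 2 were of Kif2c, at PH 3 and 6 h, and 35 calls on 12 genes are left without it. With a probe required to be detected on 3 treated arrays, an alternative chosen after seeing the data, 23 mitosis genes among 11167 genes remained, and 3, 8 and 9 were lower after PH (0.233%, 3.52% and 12.1% of all genes) and 0, 9 and 5 after TCP (0.0269%, 0.573% and 2.98%). Counted without a test, all 3 livers lay below all CO livers for 8, 16 and 11 of the 25 genes after PH at 1, 3 and 6 h (10.8%, 17.2% and 22.7% of all genes) and for 5, 14 and 5 after TCP (9.81%, 12.7% and 18.5%). Among the 23 genes that passed on treated arrays, the counts were 8, 14 and 9 after PH and 5, 13 and 5 after TCP. For none of the 25 did all 3 livers lie above all CO livers, which held for 11.2%, 11.7% and 15.2% of all genes after PH and 9.73%, 9.48% and 15.4% after TCP. The median change of the 25 genes was -0.92, -1.21 and -0.83 after PH and -0.89, -0.96 and -0.95 after TCP, beside medians of all genes between -0.078 and -0.002. The 6 comparisons share the same 3 CO livers, so they are not independent of each other.

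The CO livers did not lie together for these genes. CO replicate 3 was below CO replicates 1 and 2 for 22 of the 25 genes (88%), and for 36.9% of all tested genes. Its median distance from the mean of the other CO livers was -1.09 over the mitosis genes and 0 over all genes. The mean log2 level of the 25 genes was 7.21 and 7.22 in CO replicates 1 and 2 and 6.12 in CO replicate 3. In treated livers this mean ran from 5.49 to 6.51. It was highest in TCP 6 h replicate 1, which had the highest level of its group for 22 of the 25 genes, and it reached 6.24 in TCP 1 h replicate 1 and 6.13 in PH 1 h replicate 1. CO replicate 1 lay above every treated array for 19 genes and CO replicate 2 for 18, but CO replicate 3 for 2 genes, Plk1 and Hjurp.

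**Figure D2:**
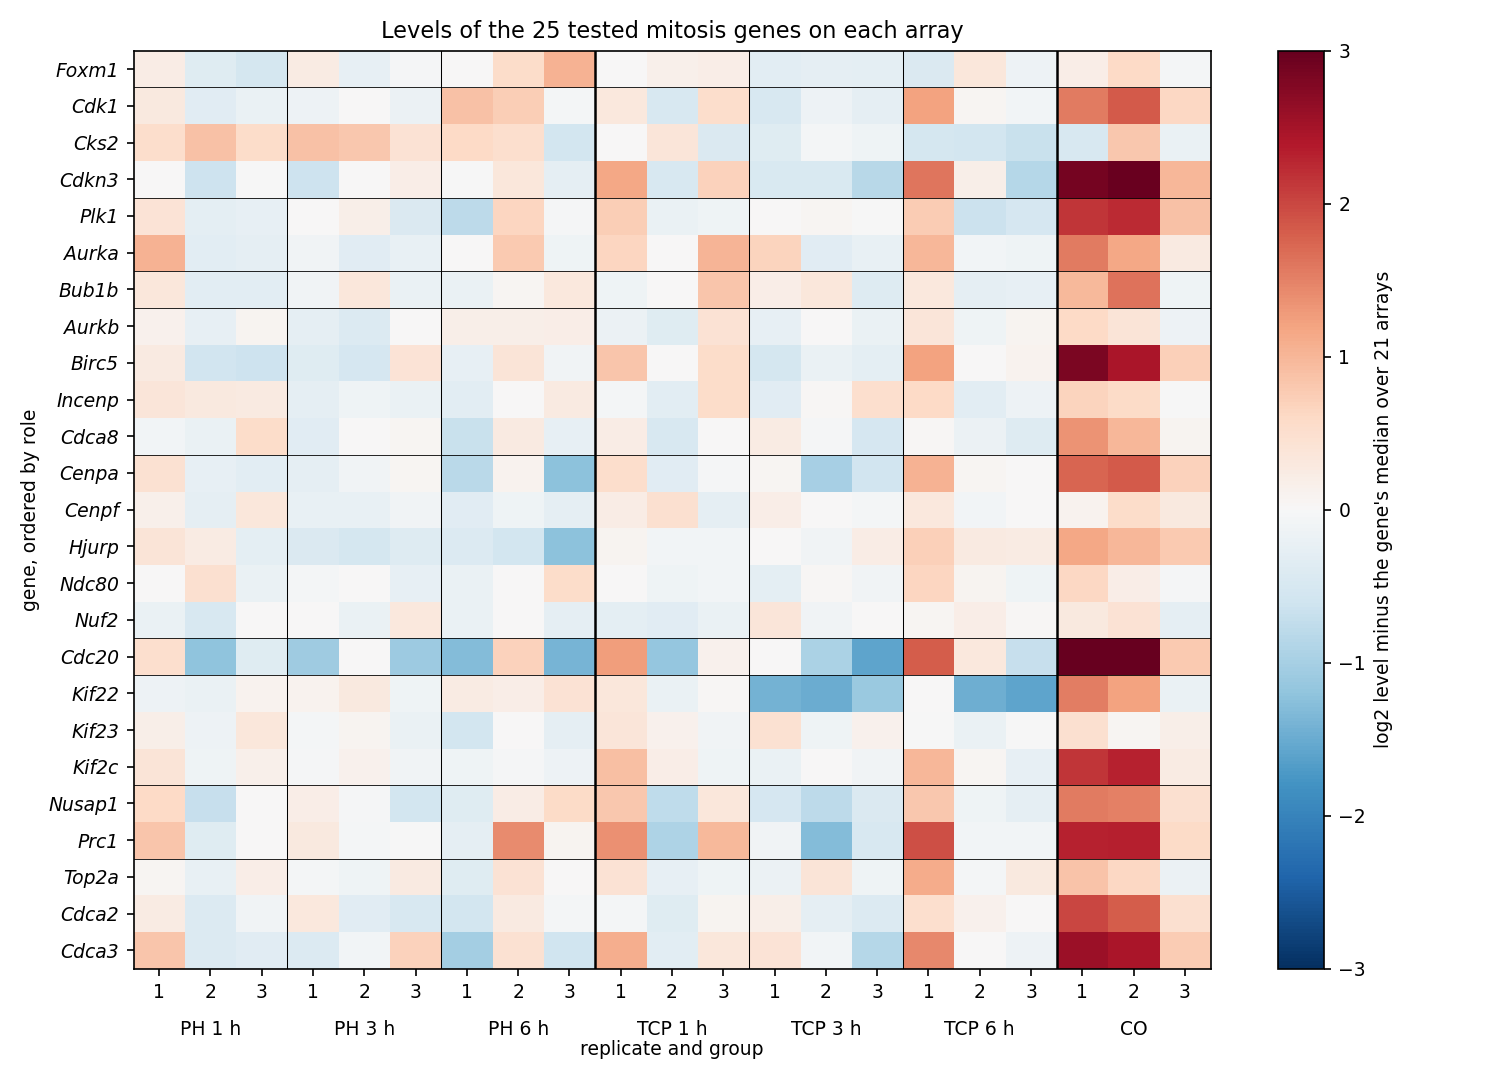
Log2 level of each of the 25 tested mitosis genes on each of the 21 arrays, minus the gene's median over all arrays, with genes ordered by role and colours ending at 3 in either direction. CO replicates 1 and 2 are the 2 columns with most genes far above their median, and CO replicate 3 is close to several treated arrays.

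The arrays sat on 4 beadchips, which are read here as batches. Beadchip 1 held CO replicate 1, TCP 3 h replicate 1 and the TCP 6 h livers. Beadchip 2 held 4 TCP arrays and no CO. Beadchip 3 held CO replicate 2, the PH 1 h livers and PH 3 h replicates 1 and 2, and beadchip 4 held CO replicate 3, PH 3 h replicate 3, the PH 6 h livers and TCP 1 h replicate 3. Each CO liver was thus alone on its beadchip, and a low CO liver cannot be told apart from its beadchip. Within beadchip 3 the called genes differed from CO by -2.75 to -1.92 at PH 1 h and by -3.77 to -1.46 at PH 3 h. Within beadchip 4 they differed by -1.86 to -0.32 at PH 3 h, by -1.51 to -0.31 at PH 6 h and by -0.86 at TCP 1 h. Within beadchip 1 the differences were -3.34 to -1.14 at TCP 3 h and -2.57 to -1.79 at TCP 6 h. All of these differences were below 0, but only genes called lower than the same CO livers were counted, so their direction is no separate support. Those set against CO replicate 3 were nearer to 0 in the comparison that both kinds cover, PH 3 h. At PH 3 h, PH 6 h and TCP 1 h, some genes not called lay above CO replicate 3 within beadchip 4, and others below. With the beadchip fitted as a block, 9 of the 37 calls remained: 0, 6 and 2 after PH at 1, 3 and 6 h, and 0, 0 and 1 after TCP. Of all genes, 0.0699%, 4.68% and 10.2% were called in either direction with the block after PH, and 0%, 0.0874% and 0.682% after TCP. The 9 calls included Cdk1, Plk1, Birc5, Hjurp, Kif2c and Cdca2 at PH 3 h. The others were Cenpa and Hjurp at PH 6 h and Kif22 at TCP 6 h. Kif2c passed the filter only through CO, and without it 8 of 35 calls remained.

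The count of calls moved with the CO liver left out, and so did the share of all genes called in either direction. With all arrays that share was 0.533%, 7.44% and 20.7% after PH and 0.14%, 1.03% and 5.65% after TCP. Without CO replicate 1 the counts were 0, 3 and 9 after PH and 0, 0 and 1 after TCP. The share of all genes was then 0.0699%, 3.27% and 15.2% after PH and 0%, 0.175% and 2.34% after TCP. Without CO replicate 2 the counts were 0, 3 and 8 after PH and 0, 0 and 1 after TCP. The share was 0.0437%, 3.63% and 14.6% after PH and 0%, 0.131% and 2.13% after TCP. Without CO replicate 3 the counts were 7, 15 and 14 after PH and 4, 13 and 9 after TCP. The share was 0.489%, 4.72% and 17.4% after PH and 0.157%, 0.856% and 3.13% after TCP. Some of these counts include genes that passed the filter only through CO. Kif2c is counted at PH 6 h in all of these fits, and at PH 1 and 3 h without CO replicate 3. Cenpf is counted at PH 6 h without CO replicate 1. No count of these fits is given without such genes. Leaving out CO replicate 1 or CO replicate 2 lost 25 calls each, and leaving out CO replicate 3 lost 1. Among the treated arrays, PH 1 h had 0 calls without replicate 2 or replicate 3 and 5 without replicate 1. PH 3 h had 4 calls without replicate 1 or replicate 3, and PH 6 h had 8 to 11. TCP 1 h had 0 calls without any 1 of its livers, TCP 3 h had 3 or 4, and TCP 6 h had 7 without replicate 1, 1 without replicate 2 and 0 without replicate 3. The PH 6 h counts include Kif2c here too. Shares of all genes called without a treated liver are not given. These counts therefore cannot show whether the mitosis genes or the whole array moved. Kif2c, which passed the filter only through CO, is left aside in what follows. The 10 calls kept in every such fit included Birc5, Hjurp and Cdca2 at PH 3 h. The rest were Cdkn3, Plk1, Birc5, Cenpa, Hjurp, Cdca2 and Cdca3 at PH 6 h. No TCP call was kept in every such fit. Of these 10 calls 5 also remained with the beadchip as a block, those of Birc5, Hjurp and Cdca2 at PH 3 h and of Cenpa and Hjurp at PH 6 h. The others, all at PH 6 h, were lost there, with adjusted p of 0.0545 (Birc5) to 0.104 (Cdkn3).

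**Figure D3:**
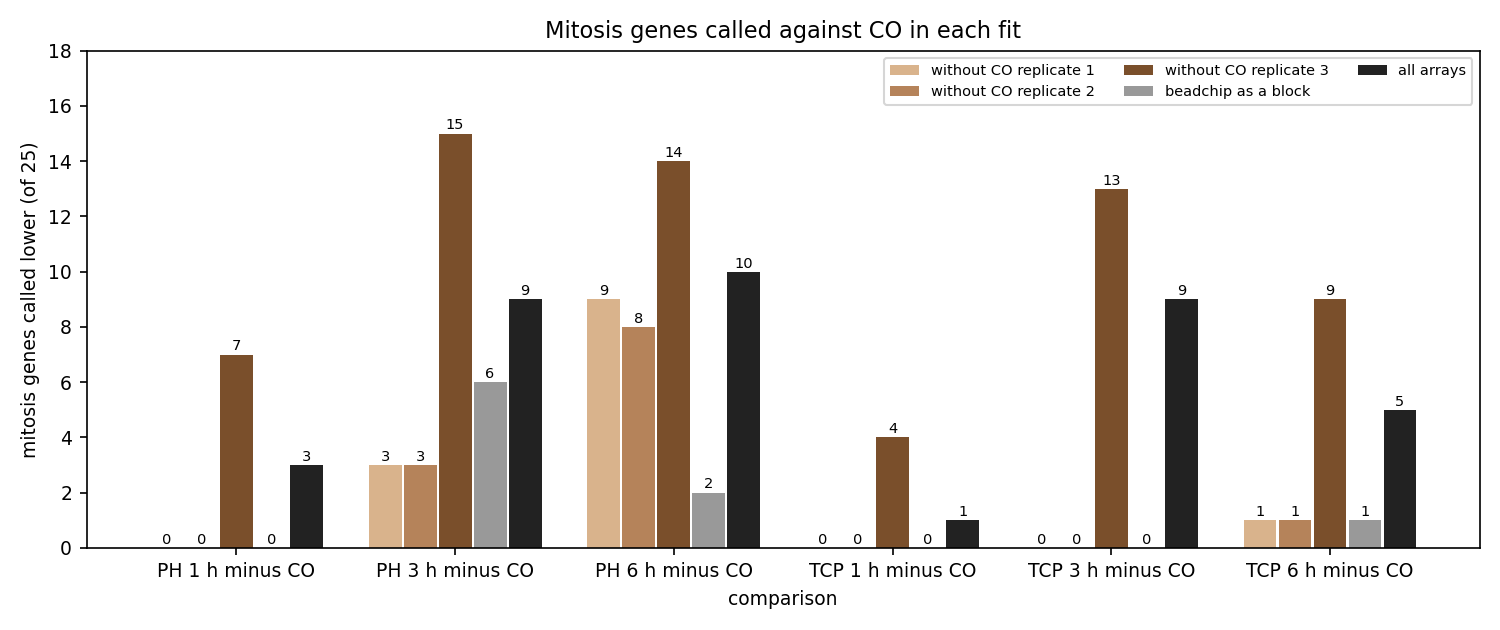
Number of the 25 tested mitosis genes called lower than CO in each comparison, with all arrays, without each CO liver and with the beadchip as a block. The count at PH 3 h was 9 with all arrays, 3 without CO replicate 1 or CO replicate 2, and 15 without CO replicate 3. The 9 and the 15 include Kif2c, which passed the filter only through CO.

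Foxm1, a transcription factor of late cell cycle genes, was not called against CO. Its levels were 4.66 to 5.43 at PH 1 and 3 h and 5.21, 5.73 and 6.24 at PH 6 h, against 5.13, 5.40 and 5.79 in CO. Its changes ran from -0.54 at TCP 3 h to 0.28 at PH 6 h, and its groups overlapped with CO at every PH time. Another Foxm1 probe, detected on 12 arrays beside 13 for the probe used, differed from CO by -0.78 at PH 6 h and -0.84 at TCP 3 h, so the probes of this gene disagree in direction at PH 6 h.

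Among the genes of the CDK1 engine, Cdk1 and Cdkn3 fell and Cks2 did not pass the test. Cdk1, the kinase that drives mitosis, was at 4.84 to 5.01 at PH 3 h and 4.54 to 4.86 at TCP 3 h, against 5.64, 6.57 and 6.86 in CO. All 6 livers lay below the lowest CO liver, and none of the 6 arrays detected the probe. Cdk1 was therefore at least 2.43-fold lower at PH 3 h (means 4.90 in PH and 6.36 in CO, adjusted p = 0.013) and at least 2.35-fold lower at TCP 3 h (mean 4.71, adjusted p = 0.0204). Both calls were lost without CO replicate 1 or CO replicate 2 and without PH 3 h replicates 1 or 3 or any 1 of the TCP 3 h livers (adjusted p up to 0.0857 and 0.16). Another Cdk1 probe, detected on 6 arrays, differed from CO by -0.13 at PH 3 h and -0.39 at TCP 3 h, and the remaining probe, detected on 2 arrays, by -0.20 and 0.11, so the fall rests on 1 of the 3 probes. Cdkn3, a phosphatase that acts on CDKs, was at 4.94, 5.55 and 5.76 at PH 3 h, 5.27, 5.54 and 5.89 at PH 6 h and 4.71, 5.09 and 5.10 at TCP 3 h, against 6.54, 8.43 and 8.51 in CO. These 9 livers lay below all CO livers, whereas TCP 6 h, at 4.70, 5.73 and 7.16, overlapped with CO. Cdkn3 fell by 2.41 at PH 3 h (SE 0.56, adjusted p = 0.0133) and fell by 2.26 at PH 6 h (adjusted p = 0.00732), and was at least 6.49-fold lower at TCP 3 h, where no array detected it (means 4.97 in TCP and 7.82 in CO, adjusted p = 0.0174). At TCP 6 h it fell by 1.96 (adjusted p = 0.0452). The call at PH 6 h was lost with the beadchip as a block (adjusted p = 0.104). Each of the others was lost without CO replicate 1 or CO replicate 2, and also without PH 3 h replicate 1, without TCP 3 h replicates 1 or 3, or without TCP 6 h replicates 2 or 3 (adjusted p 0.0748 at PH 3 h, 0.114 at TCP 3 h and 0.211 at TCP 6 h at the highest). Cks2, a small CDK-binding subunit, was at 5.73 to 6.18 at PH 1 and 3 h, against 4.82, 5.10 and 6.11 in CO. Its changes of 0.61 and 0.66 had adjusted p-values of 0.515 and 0.228, and its group overlapped with CO at both times.

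Plk1 and Aurka, kinases of centrosome maturation and spindle assembly, were the mitotic kinases tested, and Plk1 was called at 5 of the 6 times. Plk1 was at 4.98, 5.04 and 5.68 at PH 1 h, 4.84, 5.28 and 5.46 at PH 3 h, and 4.50, 5.24 and 5.92 at PH 6 h. After TCP it was at 5.07, 5.16 and 6.02 at 1 h, 5.26, 5.28 and 5.34 at 3 h, with 4.63, 4.77 and 6.04 at 6 h, against 6.16, 7.42 and 7.52 in CO. All 18 treated livers lay below the lowest CO liver, with TCP 1 h replicate 1 and TCP 6 h replicate 1 just under it. Plk1 fell after PH, with changes of -1.80 at 1 h (SE 0.41, adjusted p = 0.0475), -1.84 at 3 h (adjusted p = 0.00791) and -1.81 at 6 h (adjusted p = 0.00299). After TCP the change of -1.62 at 1 h did not pass (adjusted p = 0.15), and Plk1 fell by 1.74 at 3 h (adjusted p = 0.0383) and fell by 1.89 at 6 h (adjusted p = 0.00925). The call at PH 6 h was kept in every fit with a liver left out, at adjusted p of 0.0249 or less, but was lost with the beadchip as a block (-1.28, adjusted p = 0.0854). The other 4 were lost without CO replicate 1 or CO replicate 2, and without PH 1 h replicates 2 or 3, PH 3 h replicate 3, any TCP 3 h liver, or TCP 6 h replicates 2 or 3, with adjusted p up to 0.286, 0.0591, 0.23 and 0.0618 in that order of groups. Aurka had changes of -1.21 to -0.44, none of them called. Bub1b, the checkpoint protein BubR1, had changes of -0.92 to -0.59, and none was called. Each was detected on 8 arrays.

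Of the chromosomal passenger complex, which corrects attachments of chromosomes to the spindle, Birc5 (survivin) fell at 5 of 6 times, Cdca8 (borealin) at 1, and the kinase Aurkb and its scaffold Incenp at none. Birc5 was at 5.15, 5.20 and 6.04 at PH 1 h, 5.27, 5.41 and 6.17 at PH 3 h, and 5.52, 5.66 and 6.15 at PH 6 h. After TCP it was at 5.77, 6.33 and 6.60 at 1 h, 5.25, 5.47 and 5.58 at 3 h, with 5.77, 5.87 and 6.98 at 6 h, against 6.49, 8.22 and 8.59 in CO. The 9 PH livers and the TCP 3 h livers lay below all CO livers, and 1 liver each of TCP 1 h and TCP 6 h lay above CO replicate 3. Birc5 fell after PH, with changes of -2.30 at 1 h (SE 0.44, adjusted p = 0.0212), -2.15 at 3 h (adjusted p = 0.0042) and -1.99 at 6 h (adjusted p = 0.00257). After TCP it fell by 2.33 at 3 h (adjusted p = 0.0105) and fell by 1.56 at 6 h (adjusted p = 0.0385). The calls at PH 3 and 6 h were kept with any 1 liver left out, with adjusted p up to 0.0378 and 0.0224, and with the beadchip as a block the PH 3 h call remained (adjusted p = 0.0369) and the PH 6 h call did not (0.0545). The other calls were lost without CO replicate 1 or CO replicate 2, and those at PH 1 h and TCP 6 h also without replicate 2 or 3 of the treated group, with adjusted p up to 0.139 at PH 1 h, 0.0849 at TCP 3 h and 0.195 at TCP 6 h. The gene's other 2 probes, detected on 6 arrays each, changed by -1.92 to -1.01. Cdca8 was at 4.39, 4.81 and 5.32 at PH 6 h, against 5.15, 6.05 and 6.41 in CO, so that 1 PH liver overlapped with CO. It fell by 1.03 (SE 0.30, adjusted p = 0.0169), and the call was lost without PH 6 h replicate 1, CO replicate 1 or CO replicate 2 (adjusted p up to 0.115). The limma fit with the beadchip as a block lost it too (-0.71, adjusted p = 0.196). A second Cdca8 probe, detected on 2 arrays, differed from CO by -0.04 at PH 6 h. Aurkb and Incenp had changes between -0.62 and -0.08.

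Of the centromere and kinetochore genes, Cenpa and Hjurp were detected on all 21 arrays. Cenpa is the histone H3 variant that marks centromeres, and Hjurp the chaperone that deposits it. Cenpa was at 8.57, 8.64 and 9.33 at PH 1 h, 8.61, 8.77 and 8.95 at PH 3 h, and 7.64, 8.06 and 8.98 at PH 6 h. After TCP it was at 8.53, 8.84 and 9.41 at 1 h, 7.89, 8.30 and 8.95 at 3 h, with 8.88, 8.94 and 9.92 at 6 h, against 9.58, 10.63 and 10.72 in CO. TCP 6 h replicate 1 was the 1 treated liver above CO replicate 3. Cenpa fell, with changes of -1.53 at PH 3 h (SE 0.39, adjusted p = 0.0209), -2.08 at PH 6 h (adjusted p = 0.000921) and -1.93 at TCP 3 h (adjusted p = 0.0197). The PH 6 h call was kept with any 1 liver left out (adjusted p up to 0.00731) and with the beadchip as a block (-1.70, adjusted p = 0.0278). The call at PH 3 h was lost without PH 3 h replicates 1 or 3 and that at TCP 3 h without TCP 3 h replicates 2 or 3, and both without CO replicate 1 or CO replicate 2 (adjusted p up to 0.101 and 0.119). A second Cenpa probe, detected on 4 arrays, changed by -0.33 to 0.07.

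Hjurp was at 9.78, 10.31 and 10.45 at PH 1 h, 9.55, 9.64 and 9.68 at PH 3 h, and 8.85, 9.52 and 9.66 at PH 6 h. After TCP it was at 9.99, 9.99 and 10.16 at 1 h, 9.97, 10.07 and 10.30 at 3 h, with 10.31, 10.33 and 10.78 at 6 h, against 10.85, 11.06 and 11.22 in CO. All 18 treated livers lay below all CO livers, and of the called genes this was the one in which the CO livers differed least from each other. The change was -0.86 at PH 1 h (adjusted p = 0.0562), and Hjurp fell by 1.42 at PH 3 h (SE 0.20, adjusted p = 0.000219) and fell by 1.70 at PH 6 h (SE 0.20, adjusted p = 1.64e-05). Both calls were kept with any 1 liver left out (adjusted p up to 0.00295 and 0.00024) and with the beadchip as a block (-1.36, adjusted p = 0.00343, and -1.63, adjusted p = 0.0017), and within beadchip 4, against CO replicate 3, the differences were -1.17 and -1.51. After TCP it fell by 1.00 at 1 h (adjusted p = 0.0494) and fell by 0.92 at 3 h (adjusted p = 0.0241), and the 6 h change was -0.57 (adjusted p = 0.101). The TCP 1 h call was lost without any 1 of the 6 livers (adjusted p up to 0.32) and with detection required on treated arrays (0.053), and the TCP 3 h call without TCP 3 h replicates 1 or 2, CO replicate 1 or CO replicate 2 (up to 0.149). Cenpf, Ndc80 and Nuf2, proteins of the outer kinetochore, were detected on 4 to 5 arrays and were not called. Cenpf, which passed the filter only through CO, changed by -0.56 at PH 6 h, short of 1.5-fold. Ndc80 and Nuf2 changed by -0.44 to -0.05.

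Cdc20, which activates the anaphase-promoting complex, had the largest fitted change of the 25 genes at every time but TCP 6 h, and the largest spread between CO livers (SD 1.42). It was at 4.86, 5.69 and 6.56 at PH 1 h, 4.98, 4.99 and 6.08 at PH 3 h, and 4.67, 4.76 and 6.74 at PH 6 h. After TCP it was at 4.89, 6.20 and 7.32 at 1 h, 4.47, 5.12 and 6.06 at 3 h, with 5.36, 6.37 and 7.88 at 6 h, against 6.84, 9.29 and 9.30 in CO. The PH and TCP 3 h livers lay below all CO livers, and 1 liver each of TCP 1 h and TCP 6 h lay above CO replicate 3. Cdc20 fell by 3.13 at PH 3 h (SE 0.85, adjusted p = 0.0349) and fell by 3.09 at PH 6 h (adjusted p = 0.0159), and at TCP 3 h the change of -3.26 did not pass (adjusted p = 0.0779). Both calls were lost without CO replicate 1 or CO replicate 2 and without replicate 1 or 3 of the treated group (adjusted p up to 0.145 at PH 3 h and 0.0715 at PH 6 h). The other 3 probes of Cdc20 changed in the same direction at every time, by -2.82 to -0.44. The ubiquitin-conjugating enzyme Ube2c and securin (Pttg1), partners of Cdc20 in anaphase, were each detected on 1 array, a CO array.

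**Figure D4:**
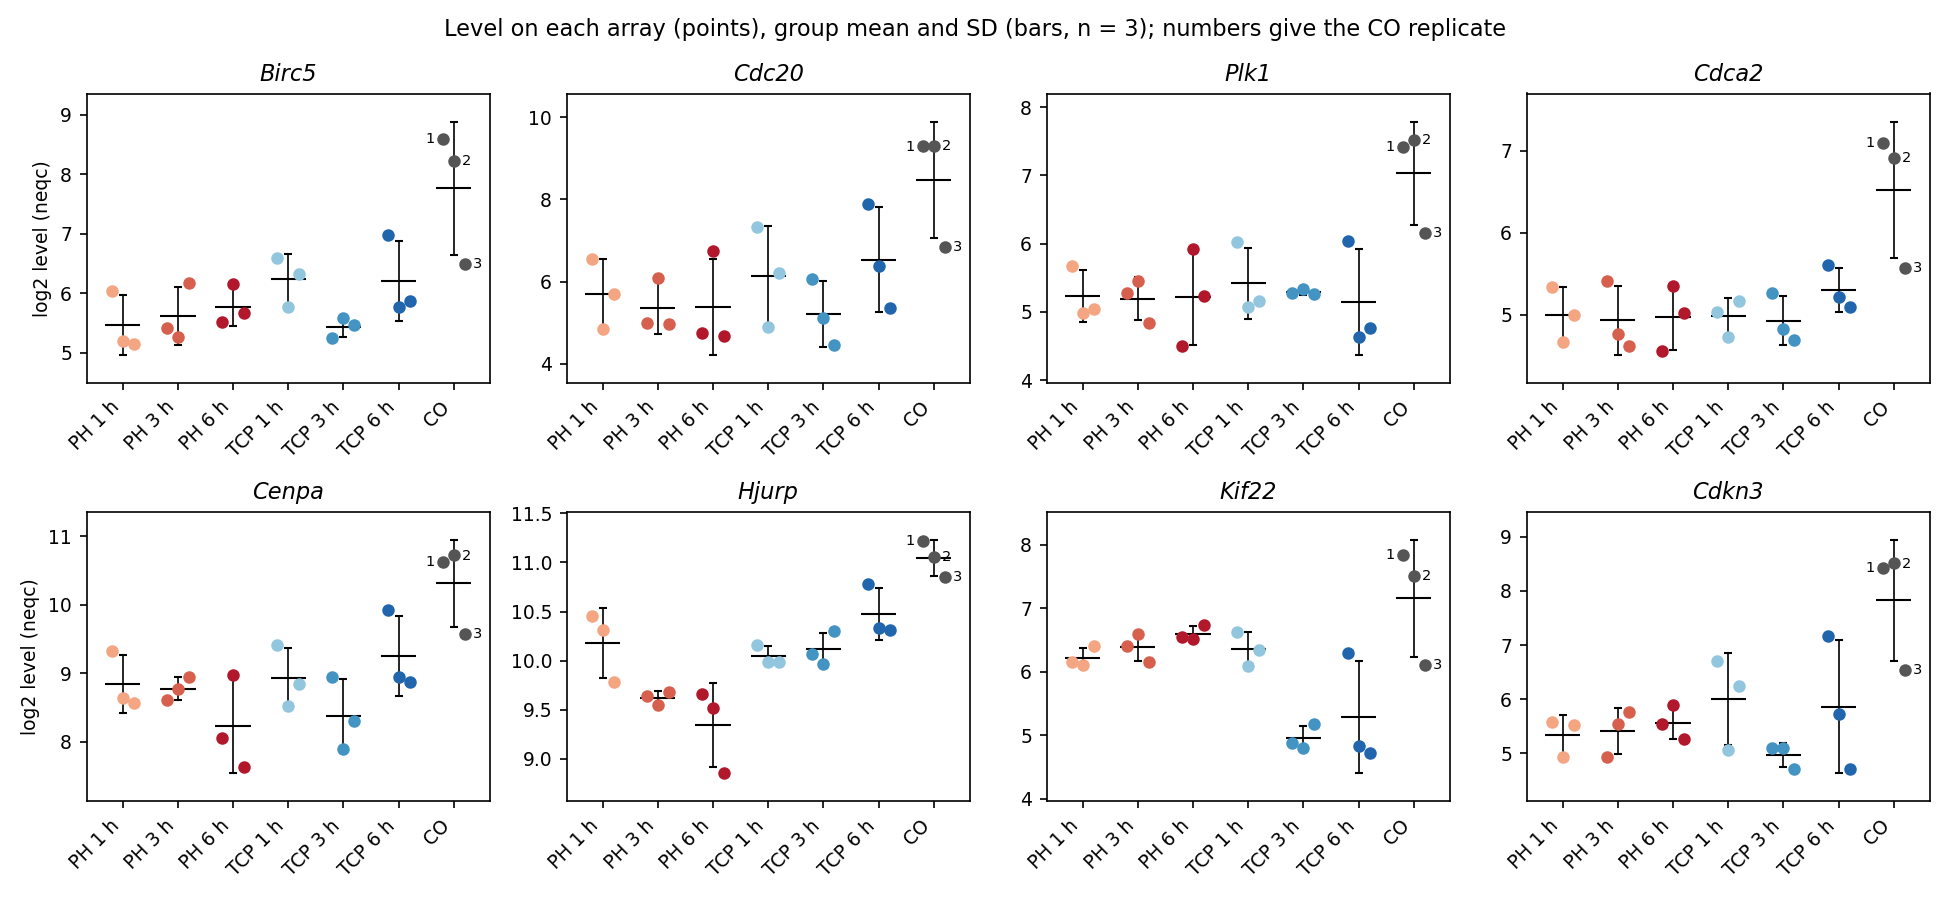
Log2 level of 8 called mitosis genes on each array (points), with group mean and SD (bars, n = 3) and the CO replicate number beside each CO point. CO replicate 3 is the lowest CO liver in all 8 genes, and in Hjurp the CO livers are closest together, between 10.85 and 11.22.

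Of the kinesins, Kif22 fell after TCP, and Kif2c was low on most treated arrays but passed the filter only through CO. Kif22, a chromokinesin that binds chromosome arms, was at 6.09, 6.34 and 6.63 at TCP 1 h, 4.80, 4.88 and 5.18 at TCP 3 h, and 4.72, 4.83 and 6.30 at TCP 6 h. After PH all 9 livers lay between 6.11 and 6.73, against 6.11, 7.51 and 7.84 in CO. The TCP 3 h livers and 2 of the TCP 6 h livers were below every other liver of the series, whereas the PH livers lay close to CO replicate 3. Kif22 fell by 2.20 at TCP 3 h (SE 0.38, adjusted p = 0.00545) and fell by 1.87 at TCP 6 h (adjusted p = 0.00546, and 0.0353 with the beadchip as a block), and its changes after PH, -0.93, -0.76 and -0.56, did not pass. The TCP 3 h call was lost without CO replicate 1 or CO replicate 2 (adjusted p up to 0.055) and the TCP 6 h call without TCP 6 h replicate 3 (0.0515). Kif2c, a kinesin that takes microtubules apart at centromeres, was at 4.51, 4.58 and 4.74 at PH 3 h and 4.46, 4.49 and 4.59 at PH 6 h, against 4.87, 6.77 and 6.94 in CO. The groups did not overlap, and the probe was detected on none of these PH arrays and on 2 of the 3 CO arrays. It was at least 2.17-fold lower at PH 3 h (means 4.61 in PH and 6.19 in CO) and at least 2.12-fold lower at PH 6 h (mean 4.52). At TCP 3 h, also with no overlap and no array that detected it, it was at least 2.09-fold lower, with a fitted change of -1.67 beside -1.58 and -1.68 at PH 3 and 6 h. Because the CO arrays let the probe through the filter, no test is given for it. Kif23, a subunit of centralspindlin, changed by -0.50 to -0.10 in the probe used, which was detected on all arrays. Another Kif23 probe, detected on 13 arrays, changed by -1.73 to -1.15, so the probes of this gene disagree.

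Of the spindle and cytokinesis genes, Nusap1 fell and Prc1 did not pass. Nusap1, which bundles spindle microtubules, was at 4.44, 4.72 and 4.80 at TCP 3 h, against 5.70, 6.75 and 6.80 in CO, with no overlap. No TCP 3 h array detected it, and it was at least 2.44-fold lower (means 4.65 in TCP and 6.41 in CO, adjusted p = 0.0383), a call that was lost without any 1 of the TCP 3 h livers, CO replicate 1 or CO replicate 2 (adjusted p up to 0.22). Prc1, which crosslinks the central spindle, was at 4.51, 5.32 and 5.71 at TCP 3 h and 5.54, 5.89 and 7.22 at PH 6 h, against 6.39, 8.12 and 8.14 in CO. Its changes of -2.37 to -1.15 had adjusted p-values of 0.0988 or more.

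Of the genes of chromosome structure, Cdca2 fell at 5 of the 6 times and Cdca3 at 1. Cdca2, which brings a phosphatase to chromosomes, was at 4.67, 4.99 and 5.34 at PH 1 h, 4.62, 4.76 and 5.41 at PH 3 h, 4.55, 5.02 and 5.35 at PH 6 h, 4.69, 4.83 and 5.26 at TCP 3 h and 5.09, 5.21 and 5.60 at TCP 6 h, against 5.57, 6.91 and 7.09 in CO. Only TCP 6 h among these groups overlapped with CO, by 1 liver. Cdca2 fell after PH, with changes of -1.53 at 1 h (SE 0.33, adjusted p = 0.0322), -1.60 at 3 h (adjusted p = 0.00388) and -1.55 at 6 h (adjusted p = 0.00165). After TCP it fell by 1.60 at 3 h (adjusted p = 0.0165) and fell by 1.22 at 6 h (adjusted p = 0.0299). The calls at PH 3 and 6 h were kept with any 1 liver left out, and with the beadchip as a block that at PH 3 h remained (adjusted p = 0.00756) and that at PH 6 h did not (0.0576). The others were lost without CO replicate 1 or CO replicate 2 and without replicate 2 or 3 of the treated group (adjusted p up to 0.251 at PH 1 h, 0.124 at TCP 3 h and 0.158 at TCP 6 h). Cdca3, a trigger of mitotic entry through an SCF ubiquitin ligase, was at 5.48, 5.91 and 6.96 at PH 6 h, against 7.27, 8.95 and 9.08 in CO, with no overlap. It fell by 2.32 (SE 0.57, adjusted p = 0.00761), and the call was kept with any 1 liver left out (adjusted p up to 0.0456) but lost with the beadchip as a block (adjusted p = 0.094). Top2a, the topoisomerase that untangles chromosomes, was detected on 6 arrays and changed by -0.41 to 0.02.

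**Figure D5:**
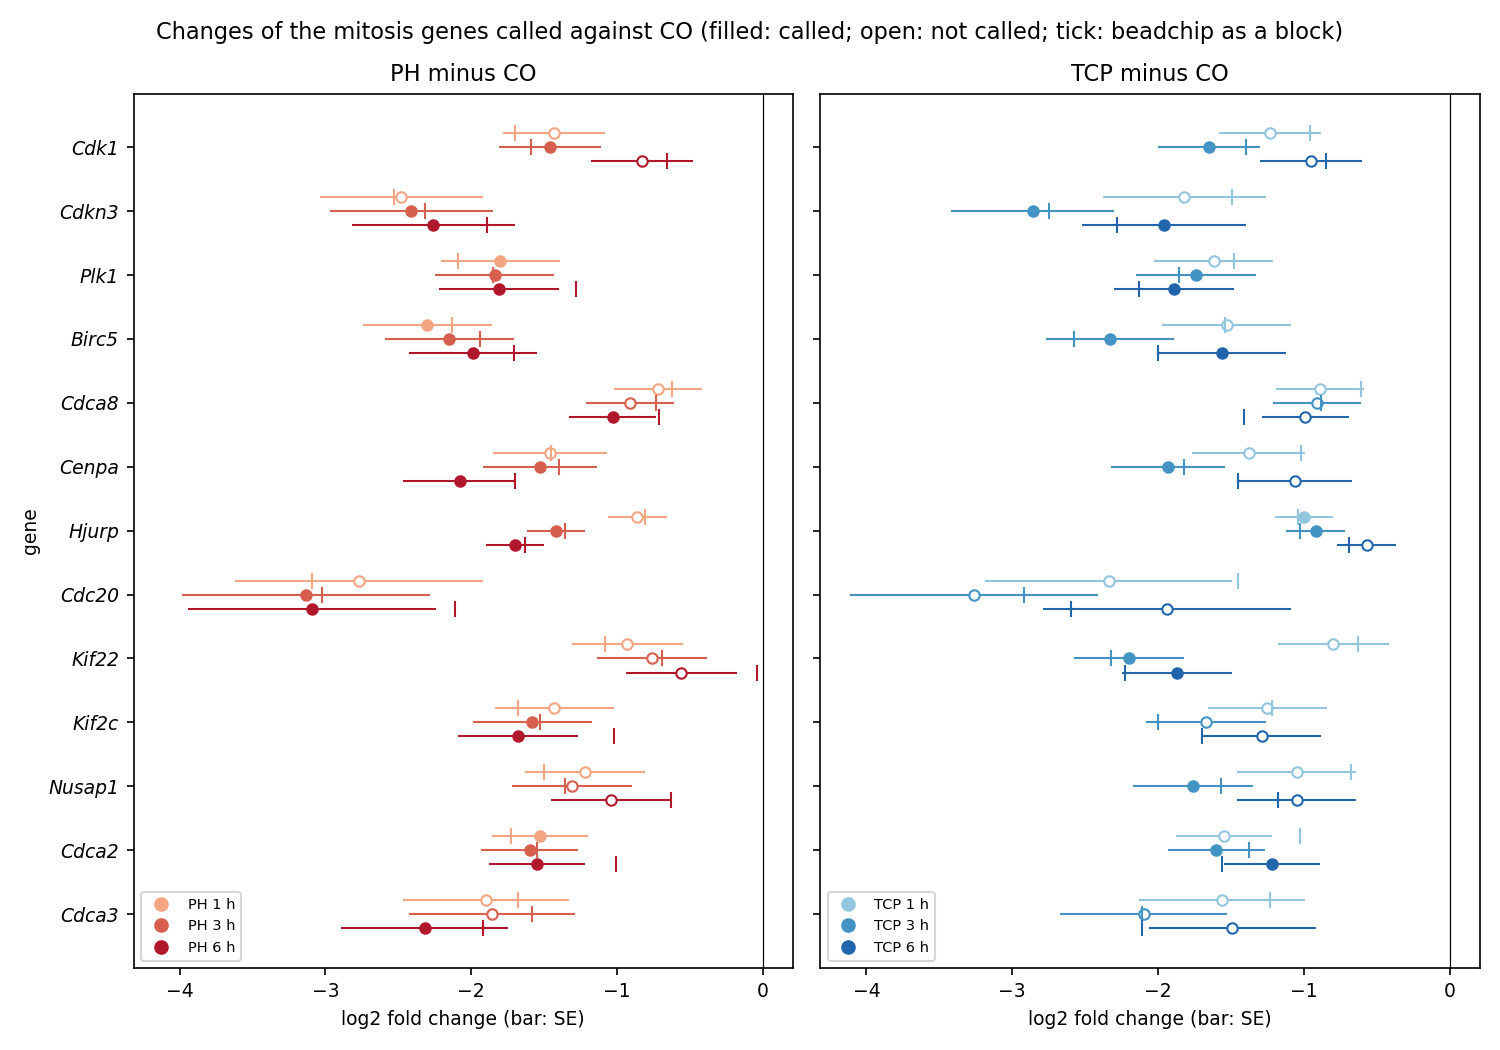
Log2 fold change against CO, with its SE, of the 13 mitosis genes called in at least 1 comparison, after PH (left) and after TCP (right). Filled points were called, and ticks give the change with the beadchip as a block. Points in groups where no array detected the probe depend on the offset; they are Kif2c at PH 1, 3 and 6 h and TCP 3 h, Cdk1 at PH 3 h and TCP 3 h, Cdkn3 and Nusap1 at TCP 3 h, Cdca2 at TCP 1 h and Cdca8 at TCP 6 h. All points lie below 0, the called Hjurp changes between -1.70 and -0.92.

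Tested over the 3 times together with limma's F test, 10 mitosis genes passed after PH, where 20.8% of all genes did, and 8 after TCP, where 5.7% did. Kif2c, which passed the filter only through CO, was 1 of the 10. The 10 after PH were Cdk1, Cdkn3, Plk1, Birc5, Cenpa, Hjurp, Cdc20, Kif2c, Cdca2 and Cdca3. The 8 after TCP were Cdk1, Cdkn3, Plk1, Birc5, Cenpa, Hjurp, Kif22 and Cdca2, set against the same CO livers. Without CO replicate 1 or CO replicate 2 the counts were 5 after PH and 1 after TCP. They were also 5 and 1 with the beadchip as a block.

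The treatments were compared with each other at the same time, without the CO livers in the difference. At 1 h no mitosis gene was called between PH and TCP by limma, 1 had an unadjusted p under 0.05, and 0.236% of all genes were higher and 0.0524% lower after PH. At 3 h 1 was higher after PH, where 2.57% of all genes were higher and 1.68% lower. At 6 h 1 was higher and 1 lower, where 4.65% and 5.43% of all genes were. Without regard to the test, the 3 livers of each treatment did not overlap for 0 genes lower and 1 higher after PH at 1 h (7.51% and 8.34% of all genes), 2 lower and 4 higher at 3 h (10.2% and 9.46%), and 3 lower and 1 higher at 6 h (15.1% and 10.9%). The median difference of the 25 genes was -0.13 at 1 h, 0.01 at 3 h and -0.18 at 6 h. Kif22 was higher in PH than in TCP livers at 3 h by 1.44 (SE 0.38, adjusted p = 0.0312, means 6.39 in PH and 4.95 in TCP) and at 6 h by 1.31 (adjusted p = 0.0266, means 6.60 in PH and 5.29 in TCP). The livers did not overlap at either time. The 3 h call was lost without any 1 of the 6 livers (1.33 to 1.55, adjusted p up to 0.0943), and the 6 h call without PH 6 h replicates 1 or 3 or TCP 6 h replicates 2 or 3 (1.03 to 1.33, adjusted p up to 0.139). Hjurp was lower in PH than in TCP livers at 6 h by -1.13 (SE 0.20, adjusted p = 0.000909, means 9.34 in PH and 10.47 in TCP), also with no overlap, and the call was kept with any 1 liver left out (-1.29 to -0.88, adjusted p up to 0.00978). PH and TCP arrays of the same time were never on the same beadchip, and with the beadchip as a block, estimated through the other groups, none of the 3 calls remained (adjusted p 0.253 and 0.151 for Kif22 and 0.364 for Hjurp).

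Between 6 h and 1 h after PH, Hjurp was lower at 6 h by -0.84 (SE 0.20, adjusted p = 0.00657), where 10.3% of all genes were lower, and Foxm1 was higher by 0.76 in the probe used (SE 0.27, adjusted p = 0.047), where 7.39% were higher. The other Foxm1 probe differed by -0.20 between these times. The Hjurp livers did not overlap and the call was kept with any 1 liver left out, whereas the Foxm1 livers overlapped and the call was lost without PH 1 h replicates 2 or 3 (0.69 and 0.61) or PH 6 h replicates 2 or 3 (0.76 and 0.50). With the beadchip as a block neither remained (adjusted p 0.266 and 0.269). Between 6 h and 1 h after TCP no mitosis gene was called by limma and 2 had an unadjusted p under 0.05, where 3.4% of all genes were lower and 3.09% higher. Livers of 6 h and 1 h did not overlap for 2 genes lower and 2 higher after PH (19.6% and 13.2% of all genes), and for 1 lower and 2 higher after TCP (15.7% and 14% of all genes). The median difference of the 25 genes was 0.01 over the PH times and -0.02 over the TCP times.

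Of 72 other genes of G2 and mitosis, 36 were tested. After PH 0, 7 and 11 of them were lower at 1, 3 and 6 h and 0, 0 and 2 higher, beside 0.236%, 3.52% and 11.9% of all genes lower and 0.297%, 3.92% and 8.79% higher. After TCP 0, 3 and 1 were lower and 0, 0 and 1 higher, beside 0.0524%, 0.586% and 2.94% of all genes lower and 0.0874%, 0.446% and 2.72% higher. Several of these genes passed the filter only through CO, and with detection required on treated arrays 30 were left, of which 0, 2 and 6 were lower after PH and 0, 2 and 0 after TCP. Spc25, a subunit of the NDC80 complex, was at least 2.99-fold lower at PH 6 h (adjusted p = 0.00258) and fell by 1.60 at TCP 3 h (adjusted p = 0.0418). Anln, which encodes anillin of the contractile ring, was at least 2.33-fold lower at PH 3 h (adjusted p = 0.00411), and Cenpt, which links centromere and kinetochore, rose by 1.47 at PH 6 h (adjusted p = 0.000831). After TCP the checkpoint protein Mad2l1 fell by 1.62 at 3 h (adjusted p = 0.0335), and Esco2, an acetyltransferase of cohesin that passed the filter only through CO, was at least 1.41-fold lower at 3 h. The mean level of the list was 6.31 in CO replicates 1 and 2 and 5.72 in CO replicate 3, so that here too the third CO liver lay low. With the beadchip as a block, 4 of the lower calls at PH 3 h and 1 at PH 6 h were made, and none after TCP. Beside them 4.68% and 10.2% of all genes were called in either direction with the block. The 4 were Anln, Knstrn, Ckap2 and Esco2. With detection required on treated arrays, Anln and Knstrn were still called at PH 3 h, and Ckap2 and Esco2 were not. Of 15 subunits and partners of the anaphase-promoting complex, 12 were tested. At PH 6 h Anapc2 fell by 1.03 and Anapc13 fell by 0.97, and Cdc16 rose by 0.66 (adjusted p = 0.00122, 0.00284 and 0.0123), which is 2 of 12 lower and 1 of 12 higher beside 11.9% and 8.79% of all genes. At TCP 6 h Anapc13 fell by 1.07 (adjusted p = 0.00626), and none was called at the other times. The beadchip block left the calls of Anapc2 and Anapc13 at PH 6 h and not the other 2.

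The genes of DNA replication act before mitosis. Of 45 genes 36 were tested, and after PH 0, 2 and 7 were lower at 1, 3 and 6 h and 0, 0 and 1 higher, while after TCP none was called at 1 and 3 h and 6 were higher at 6 h. Beside them 3.52% and 11.9% of all genes were lower at PH 3 and 6 h, and 8.79% at PH 6 h and 2.72% at TCP 6 h were higher. Fen1, a nuclease that processes Okazaki fragments, was called higher at 6 h after both treatments, by 1.00 after PH and 1.13 after TCP (adjusted p = 0.0258 and 0.0369). The replication initiation factor Mcm10 fell by 3.29 at PH 6 h (SE 0.39, adjusted p = 3.41e-05), thymidine kinase Tk1 fell by 1.58 (adjusted p = 0.00588) and the polymerase subunit Pold1 fell by 1.28 (adjusted p = 0.0181). At TCP 6 h the helicase subunits Mcm2 and Mcm4 rose by 1.59 and 1.56 (adjusted p = 0.0156 and 0.0288) and the histone chaperone Chaf1b by 1.41 (adjusted p = 0.0147). Tested directly at 6 h, 9 of the 36 were lower in PH than in TCP livers and 0 higher, beside 5.43% and 4.65% of all genes. The median difference was -0.61, and Mcm2, Mcm4, Mcm10, Chaf1b, Tk1 and Pold1 were among the 9. The mean level of the 36 genes was 7.42 in TCP 6 h replicate 1 and 6.73 and 6.59 in TCP 6 h replicates 2 and 3, against 6.68, 6.70 and 6.39 in CO. Without TCP 6 h replicate 1, 0 of the 36 were called higher than CO, and 2 without replicate 2 or without replicate 3. The 9 genes lower in PH than in TCP livers became 4, 8 and 12 without TCP 6 h replicates 1, 2 and 3, with 4 genes (Chaf1b, Mcm2, Mcm10 and Tk1) called in each. Shares of all genes called in these fits are not given. With the beadchip as a block, 3 replication genes were lower and 1 higher at PH 6 h, and none was called after TCP or between the treatments. Of the 11 G1 cyclins, their kinases and inhibitors, all tested, the CDK inhibitor Cdkn1a rose by 5.03 at PH 3 h (adjusted p = 0.00204) and 5.44 at PH 6 h (adjusted p = 0.00037), and cyclin D1 (Ccnd1) by 1.24 at TCP 6 h (adjusted p = 0.0192). The Cdkn1a calls remained with the beadchip as a block (adjusted p = 0.0153 and 0.0149), and the Ccnd1 call was lost there (0.286) and without any 1 of the TCP 6 h livers. Of 23 regulators of the E2F, DREAM and MYB group, 15 were tested. At PH 6 h 3 were lower and 4 higher, beside 11.9% and 8.79% of all genes, among them Tfdp2, a partner of E2F proteins, which fell by 1.29 (adjusted p = 0.000667), the repressor E2f4, which rose by 1.12 (adjusted p = 0.00793), and E2f1, which fell by 0.95 (adjusted p = 0.0242). At PH 3 h 1 was lower, after TCP the retinoblastoma gene Rb1 fell by 1.05 at 3 h (adjusted p = 0.0276), and E2f2 rose by 1.26 at 6 h (adjusted p = 0.0326). The beadchip block left 1 regulator lower, Tfdp2, and 1 higher at PH 6 h, and none was called after TCP. The E2f2 call was also lost without any 1 of the TCP 6 h livers.

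Markers of other cells that divide in or pass through the liver were examined because mitosis genes are also expressed outside hepatocytes. The mean log2 level of the 6 erythroid markers tested (Alas2, Hba-a1, Hbb-b2, Klf1, Rhag and Slc4a1, of 13 listed) was 7.86, 8.78 and 8.85 at PH 1 h, 7.62, 7.85 and 8.22 at PH 3 h, 7.46, 7.89 and 8.42 at PH 6 h, 7.90, 8.35 and 8.69 at TCP 1 h, 7.48, 7.59 and 7.68 at TCP 3 h and 7.89, 8.19 and 8.30 at TCP 6 h, against 8.50, 9.12 and 9.17 in CO. By this mean CO replicate 3 was again the lowest CO liver. All livers of PH 3 h, PH 6 h, TCP 3 h and TCP 6 h had a mean below it. Single markers differed. In Klf1 all livers of PH 6 h, TCP 3 h and TCP 6 h lay above CO replicate 3, which was at 5.87. The PH 3 h livers lay on either side of that value. Rhag was at 4.72, 4.73 and 5.12 in CO, highest in CO replicate 3. The heme synthesis gene Alas2 fell by 1.15 at PH 6 h and fell by 1.30 at TCP 3 h, and Hbb-b2 fell by 3.25 at PH 3 h (adjusted p = 0.00384, 0.0184 and 0.0182). Each is 1 of the 6 lower at its time, beside 11.9%, 0.586% and 3.52% of all genes in that order. The beadchip block left Alas2 at PH 6 h (adjusted p = 0.0405). It lost Alas2 at TCP 3 h (0.124) and Hbb-b2 at PH 3 h (0.0639). None of the 6 was called against CO at PH 1 h, TCP 1 h or TCP 6 h, and the membrane protein gene Epb42 was detected on no array. The summed signal of the 6 ranged from 7980 to 39900 in treated livers, against 24000 to 42300 in CO. The part of red cells and their precursors in the changes of the mitosis genes was not tested.

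Of the granulocyte and neutrophil markers, 7 of 9 were tested and their summed signal was 388 to 5560 at PH 1 h, 1190 to 2350 at PH 3 h, 566 to 1290 at PH 6 h and 237 to 512 after TCP, against 190 to 215 in CO. S100a9 rose by 2.86, 4.52 and 2.96 at PH 1, 3 and 6 h, and S100a8 by 4.70 and 3.50 at PH 3 and 6 h. The beadchip block lost the S100a9 call at PH 1 h (adjusted p = 0.199) and left the calls of both genes at PH 3 and 6 h. Macrophage markers, 8 of 10 tested, were not called against CO, but 5 were lower at PH 6 h than at PH 1 h and 5 higher at TCP 6 h than at TCP 1 h, beside 10.3% of all genes lower and 3.09% higher. With the beadchip as a block none of these was called. Of 8 endothelial markers 1 was higher at PH 3 h and 4 at PH 6 h, of 2 cholangiocyte markers tested 1 was higher at PH 3 h, and of 7 stellate cell markers 1 was lower and 1 higher at PH 6 h. Beside them 3.92% of all genes were higher at PH 3 h, and 8.79% higher and 11.9% lower at PH 6 h. With the beadchip as a block 1 endothelial marker was higher at PH 3 h and 2 at PH 6 h. The cholangiocyte call remained there, and no stellate cell marker was called. Of the hepatocyte markers, Tat was higher at all PH times. The beadchip block left its calls at PH 3 and 6 h and lost that at PH 1 h (adjusted p = 0.355). None of the 5 T and NK cell markers tested was called against CO, nor was the 1 B cell marker tested, and Pax5, Cd8a, Gzmb and the biliary marker Epcam were detected on no array. The part of these cells in the changes of the mitosis genes was not tested either.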

How the data were processed

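Total RNA of 21 livers was amplified, labelled and hybridised on Illumina mouse beadchips, which the labels name MouseRef-8 and the study's methods WG-6. The deposited table of 45281 probes gives each probe's intensity on each array, not normalised, with a detection p-value against the negative control beads of that array. A second table, deposited by the authors, holds log2 values quantile normalised between arrays and was used as an alternative only. No background correction is stated for it, and its log2 scale was read from the values.

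The intensities were corrected with normexp, given an offset of 16, quantile normalised and taken to log2 (neqc, limma 3.58.1, R 4.3.3). Of the probes, 34885 had 1 gene symbol in the platform annotation, 18 several and 10378 none listed. A probe was kept if 3 arrays or more gave it a detection p under 0.05 (17970 probes), and each gene was read from its brightest probe (11442 genes). Beadchip correction (as a block and within beadchips), scaling, offset, filter, probe choice, replicate block and each array left out were tried as alternatives. All 7 groups entered 1 limma fit with a trend and robust estimation (eBayes), with Benjamini-Hochberg adjustment over all genes and a call at adjusted p under 0.05 and 1.5-fold, the fold and adjustment that the study's methods name. A probe that no array of a group detected gives a lower bound: the mean of the other group against, per array, the higher of the probe's own value and the lowest value among detected probes. The test was checked on simulated data.

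Replicates are separate mice, numbered in the labels. Numbers did not pair the arrays. The number of arrays limits the precision. Every mitosis gene is accounted for by role, called genes have their values, and of each pathway list the 3 called genes with the largest change after PH and after TCP are named. The mitosis genes, pathway lists and marker lists were chosen with earlier results of these data known. Promoter windows came from RefSeq (GRCm38.p6).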

Additional observations from a re-analysis of the deposited data

Results flagged for a closer look

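In 3 results a mitosis gene differed between the treatments when the difference itself was tested. That is 1 of 25 higher after PH at 3 h, beside 2.57% of all genes. At 6 h it is 1 of 25 higher and 1 of 25 lower, beside 4.65% and 5.43%. These shares are close to those of all genes. Kif22 was higher in PH than in TCP livers at 3 h by 1.44 and at 6 h by 1.31 on the log2 scale. Hjurp differed between PH and TCP livers at 6 h by -1.13, lower in PH. PH and TCP arrays of the same time were on different beadchips, and none of these calls was made with the beadchip as a block, so treatment and beadchip cannot be told apart. With 1 liver left out, the Kif22 call at 3 h was lost in all 6 fits and that at 6 h in 4 of 6, and the Hjurp call was kept in all 6.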

How the results depend on the processing

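No change of a called gene turned its direction in any of the refits, which did not read a gene from its other probes alone. Another Foxm1 probe, detected on 12 arrays, differed by -0.20 for PH 6 h minus 1 h, where the call was 0.76. A Cdk1 probe detected on 2 arrays differed by 0.11 at TCP 3 h, where the probe used gave -1.65. Of the 42 calls, 41 were kept with a detection p under 0.01, 38 with median scaling or an offset of 50, 37 with the mean of a gene's detected probes, 36 without background correction or without a detection filter, and 18 on the authors' normalised values. Median scaling moved the median of all genes by -0.108 to -0.241 against CO and that of the mitosis genes to between -1.36 and -1.03. Counts that moved by over 1.5 times were as follows. On the authors' values they were 1 (PH 1 h), 6 (PH 6 h), 5 (TCP 3 h), 0 (TCP 6 h), 0 and 1 (PH minus TCP at 3 and 6 h), 1 (PH 6 h minus 1 h), and 6 and 4 (F tests of PH and TCP). With the beadchip as a block they were 0 and 2 (PH 1 and 6 h), 0, 0 and 1 (TCP), 0 and 0 (PH minus TCP), 0 (PH 6 h minus 1 h), and 5 and 1 (F tests). Within beadchip 1 they were 0 and 3 (TCP 3 and 6 h), within beadchip 3 0 and 0 (PH 1 and 3 h), and within beadchip 4 0 (PH 3 h), 0 (PH 6 h) and 0 (TCP 1 h). With the methods' filter of a median signal above 300, which leaves 3 of the genes (Cenpa, Hjurp and Kif23), they were 0, 2 and 2 (PH), 2 and 0 (TCP 3 and 6 h), 0 and 1 (PH minus TCP), 1 (PH 6 h minus 1 h), and 2 and 2 (F tests). Median scaling and an offset of 50 each gave 2 (TCP 1 h), 0 and 1 (PH minus TCP) and 1 (PH 6 h minus 1 h), and no background correction gave 0 and 1 (PH minus TCP) and 1 (PH 6 h minus 1 h). The mean of probes gave 1 (PH 1 h), 0 (TCP 1 h) and 1 (PH 6 h minus 1 h), no detection filter 0 (TCP 1 h), 3 (TCP 6 h) and 1 (PH 6 h minus 1 h), and a detection p under 0.01 gave 0 (TCP 1 h). A fit without trend and robust estimation, and detection required on 3 treated arrays, which kept 39 of 40 calls, both chosen after seeing the data, each gave 0 (TCP 1 h). The cause of these moves was not tested.

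Replicate numbers did not pair the arrays: deviations of arrays with the same number correlated by -0.24 to 0.25, and 10 of 21 arrays correlated best with their own number. The replicate block gave 7 calls at PH 1 h and 1 for PH 6 h minus 1 h, and kept 41 of the 42 calls. With 1 liver left out the counts ranged from 0 to 7, 3 to 15 and 8 to 14 after PH at 1, 3 and 6 h, from 0 to 4, 0 to 13 and 0 to 9 after TCP, from 0 to 0, 0 to 0 and 1 to 3 for PH minus TCP, from 1 to 2 for PH 6 h minus 1 h, from 0 to 1 for TCP 6 h minus 1 h, and from 5 to 14 and 1 to 14 in the F tests of PH and TCP. The F counts were lowest without CO replicate 1 or CO replicate 2. The counts of 7 at PH 1 h and 15 at PH 3 h include Kif2c, which passed the filter only through CO. Shares of all genes are given above only for the fits without a CO liver. Most of these genes are near background, where the offset shrinks a change and a probe not detected gives a bound only.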
